A study of Homo sapiens with 20 samples.

Results

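Chromatin accessibility in cells carrying the fusion protein TAZ-CAMTA1 was set beside that of cells carrying TAZ4SA, an activated form of full-length TAZ, by matching their ATAC-seq peaks by position. The members were all 236893 peaks of the TAZ-CAMTA1 list and all 152702 peaks of the TAZ4SA list, 389595 of the 1407450 peaks in the 7 lists of the series. A peak was called shared if it overlapped a peak of the other list by 1 bp or more. It was called one-sided if its summit had a −log10 p of 6 or more and no peak of the other list lay within 1 kb, and one-sided peaks were then divided by whether they overlapped a peak of the empty vector (EV) list and of the CAMTA1 list.

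All cells were SW872, an established human liposarcoma cell line, stably transduced with a retrovirus and kept under drug selection as pooled lines. The TAZ-CAMTA1 cells expressed the N terminus of TAZ joined to the C terminus of CAMTA1, and the TAZ4SA cells expressed full-length TAZ whose LATS phosphorylation sites were replaced by alanine. EV cells carried the vector alone and CAMTA1 cells carried full-length CAMTA1. YAP5SA (activated YAP), TFE3 and the fusion YAP-TFE3 served here as the 5 other lists together with EV and CAMTA1. Every vector had 3 libraries from separate transductions apart from TFE3, which had 2, and the title of the third EV library marks it as a redo. All constructs were carried by the same retroviral vector.

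TAZ, encoded by WWTR1, is a transcriptional coactivator that reaches DNA mainly through the TEAD family of DNA-binding proteins. The Hippo pathway kinases LATS phosphorylate TAZ and thereby hold it in the cytoplasm, so that loss of these sites gives a form that stays active in the nucleus. CAMTA1 is a calmodulin-binding transcription activator, and the fusion of the TEAD-binding end of TAZ to CAMTA1 is the initiating event of most cases of epithelioid hemangioendothelioma, a vascular sarcoma. In ATAC-seq, the Tn5 transposase inserts adapters into DNA not covered by nucleosomes, so that a peak marks a stretch of accessible chromatin such as a promoter or an enhancer.

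One peak list per vector was deposited, in hg19 coordinates. The peak area is the authors' signal value, the caller's area under the curve for the peak. From which level it is measured is not given in the sources used here, so ratios of area are not ratios of signal height. TAZ4SA peaks without a TAZ-CAMTA1 counterpart, for instance, had a median area of 40.8 at a median width of 100 bp and a median summit −log10 p of 4.24. The area is not scaled between lists, so the rank of a peak by area within its own list (0 for the smallest, 100 for the largest, called the area percentile) is given beside it. More weak peaks in a list raise the percentile of its other peaks, so this rank does not remove differences in list length. The number of reads behind a list was unknown. With 1 list per vector there was no replicate error and no test was possible. Intervals of shares are 95% Wilson intervals over peaks. They cover counting error only and leave out the variation between libraries, which for these lists could not be measured.

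Most TAZ4SA peaks lay where TAZ-CAMTA1 cells also had a peak, whereas most TAZ-CAMTA1 peaks had no TAZ4SA counterpart. Of the TAZ4SA peaks, 116894 (76.6%, 76.3 to 76.8) overlapped a TAZ-CAMTA1 peak. Of the TAZ-CAMTA1 peaks, 86332 (36.4%, 36.2 to 36.6) overlapped a TAZ4SA peak. Peaks without a counterpart were narrow and weak in both lists. Their median width was 132 bp in the TAZ-CAMTA1 list against 652 bp for shared peaks, and the −log10 p at the summit had medians of 4.18 and 7.79. In the TAZ4SA list the median widths were 100 bp and 211 bp and the median −log10 p values 4.24 and 5.22. Strong peaks, those with a summit −log10 p of 6 or more, overlapped a peak of any strength in the other list more often. This held for 77.1% of 74802 TAZ-CAMTA1 peaks and 96.4% of 44497 TAZ4SA peaks. With both lists limited to strong peaks, the shares were 46.2% and 88.7%. If an overlap had to cover 50% of both peaks, only 16.5% of all TAZ-CAMTA1 and 25.6% of all TAZ4SA peaks were shared.

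A single TAZ-CAMTA1 peak often spanned several TAZ4SA peaks. This was the case for 22674 TAZ-CAMTA1 peaks, 26.3% of the shared ones, and the widest span took in 21 TAZ4SA peaks. These spanning peaks had a median width of 1531 bp. The reverse was uncommon, with 2224 TAZ4SA peaks (1.90% of the shared ones) overlapping 2 or more TAZ-CAMTA1 peaks.

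Where exactly 1 peak of each list met, the TAZ-CAMTA1 peak was usually the wider one and had the larger area, while the summits lay close together. There were 59538 such pairs. The TAZ-CAMTA1 peak was wider in 82.2% of them and the TAZ4SA peak in 17.4%, and the TAZ4SA peak lay wholly inside the TAZ-CAMTA1 peak in 66.7% of pairs against 9.21% for the reverse. The median width was 449 bp in the TAZ-CAMTA1 list and 203 bp in the TAZ4SA list, and the median ratio within a pair was 1.62 (quartiles 1.12 and 2.92). Median areas were 606 and 127, with a median ratio of 3.12 (quartiles 1.55 and 7.38). The ratio of the area per base had a median of 1.79, so that the difference in area was not one of width alone. In terms of rank within the own list, the TAZ-CAMTA1 peak stood a median of 8.14 percentiles higher (quartiles -0.717 and 27.9), and it was the higher ranked in 72.1% of pairs. The choice of pairs moved the size of the ratio but not its direction: the median area ratio was 5.83 when every overlapping pair was counted and 2.17 when the overlap had to cover 50% of both peaks.

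The position of the summit, the base with the strongest signal, differed little. Its median distance between the lists was 29 bp (quartiles 9 and 79). The summits fell on the same base in 2.86% of pairs, within 10 bp in 28.8% and within 50 bp in 63.3%, and lay more than 200 bp apart in 10.5%. There was no side preference. The signed shift had a median of 0 bp with quartiles of -29 and 29 bp, and the TAZ-CAMTA1 summit lay to the right of the TAZ4SA summit in 48.4% and to the left in 48.7% of pairs.

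**Figure D1:**
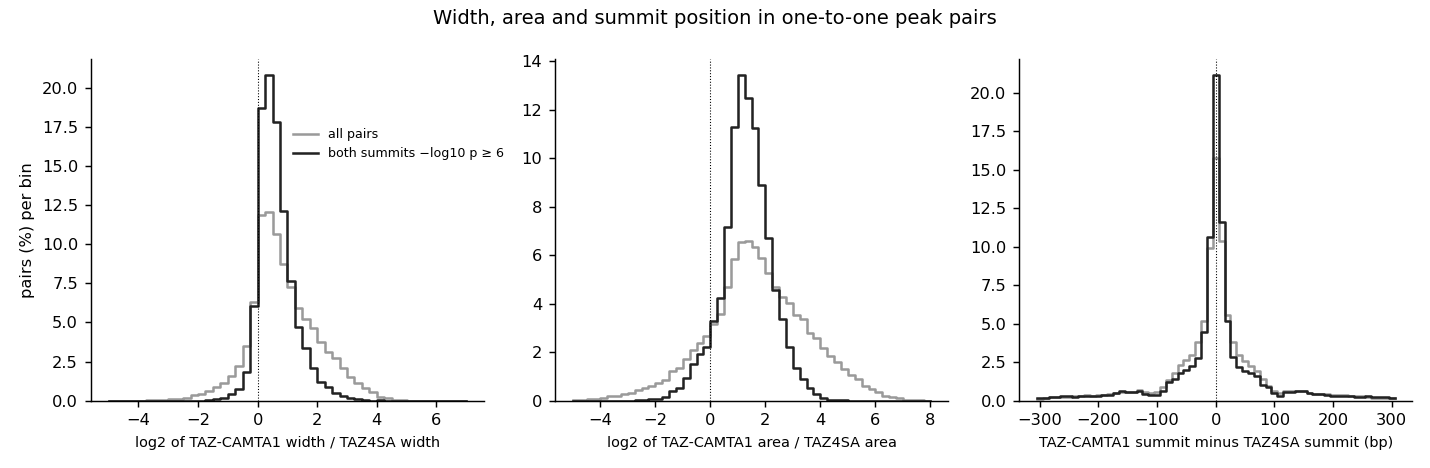
Histograms of one-to-one peak pairs. The x axes give the log2 ratio of TAZ-CAMTA1 to TAZ4SA peak width (left), the log2 ratio of peak area (middle) and the TAZ-CAMTA1 summit position minus the TAZ4SA summit position in bp (right); the y axes give the percentage of pairs per bin. Grey lines show all 59538 pairs and black lines the 17648 pairs with a summit −log10 p of 6 or more in both lists. Width and area ratios lie mostly above 0 on the log2 scale, and the shift is symmetric around 0 bp.

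Of the 59538 one-to-one pairs of the full lists, 17648 were strong in both lists. In these the differences in width and area were smaller in size but more uniform in direction. The median width was 1161 bp for TAZ-CAMTA1 and 735 bp for TAZ4SA, with a median ratio of 1.43 (quartiles 1.16 and 1.87), and the TAZ-CAMTA1 peak was wider in 90.3% of pairs. The area ratio had a median of 2.47 (quartiles 1.75 and 3.62), and the TAZ-CAMTA1 area was larger in 92.1% of pairs. In rank the difference had a median of 1.71 percentiles (quartiles -0.540 and 5.42), and the TAZ-CAMTA1 peak was the higher ranked in 68.5% of these pairs. Strong peaks rank high in either list, which leaves little room for a gap. The middle 90% of percentiles ran from 72.9 to 98.7 for TAZ-CAMTA1 and from 70.4 to 98.6 for TAZ4SA. Summits were 21 bp apart in the median, and 5.03% of them shared the same base. The smaller width ratio depended on the order of the steps. With weaker peaks removed before pairing, 29548 pairs had a median width ratio of 1.64 and a median area ratio of 2.78.

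The area ratio was not the same along the range of peak sizes. Among pairs whose mean area percentile was below 25 the median ratio was 1.29, and the TAZ4SA peak had the larger area in 36.7% of them. The ratio rose to 3.76 between the 25th and 50th percentile and to 4.71 between the 50th and 75th, and declined to 3.32 up to the 90th and 2.31 above it. The median ratio was thus largest in pairs of intermediate mean percentile. The grouping uses the same areas as the ratio, and a very low or very high mean leaves less room for unequal areas. How far the grouping itself shapes this course was not tested. In the top group the TAZ4SA peak was the larger in 3.73% of 7696 pairs.

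The ratio also varied among chromosomes, with TAZ-CAMTA1 ahead on each of the 22 autosomes and X. The lowest medians were 2.09 on chromosome 13, 2.40 on chromosome 5 and 2.63 on chromosome 4. The highest were 4.29 on chromosome 19, 4.59 on chromosome 17 and 5.17 on chromosome 22. On chromosome 13 the TAZ4SA peak had the larger area in 25.3% of pairs, against 5.95% on chromosome 19. The summit distance showed no such spread, with medians of 26 to 35 bp.

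Larger areas than in the TAZ4SA list were not particular to the fusion. In one-to-one pairs formed in the same way, all of the 5 other lists had a median area above that of TAZ4SA, with ratios of 1.42 for EV, 1.51 for TFE3, 2.14 for YAP5SA, 2.80 for CAMTA1 and 3.35 for YAP-TFE3. These ratios share the TAZ4SA list and are not independent of each other. Against the other lists in turn, the TAZ-CAMTA1 area stood at ratios of 2.54 over EV, 2.28 over TFE3, 1.56 over YAP5SA and 1.17 over CAMTA1, and at 0.963 against YAP-TFE3. The TAZ-CAMTA1 peaks were thus near those of CAMTA1 and YAP-TFE3 in area, and the TAZ4SA peaks nearest to those of EV. The summit distance was 27 to 30 bp whenever TAZ4SA was a partner and 15 to 22 bp between TAZ-CAMTA1 and the 5 other lists. With 1 list per vector, an effect of the construct and one of depth cannot be told apart in these ratios.

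The extremes of the strong pairs are given by position. The largest area ratio was 39.6, at chr15:77818739-77821096, where a TAZ-CAMTA1 peak of 2358 bp (area 6652, summit −log10 p 13.1) enclosed a TAZ4SA peak of 184 bp (area 168, −log10 p 6.02) with the summits on the same base. The next were chr6:43884105-43886141 with a ratio of 35.9 and a summit distance of 6 bp, and chr16:14106882-14108351 with a ratio of 28.4 and a distance of 8 bp. All 3 were wide, strong TAZ-CAMTA1 peaks with a narrow TAZ4SA peak under the summit.

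The smallest ratios, where TAZ4SA was ahead, were less extreme. At chr16:33901506-33901839 the TAZ-CAMTA1 peak had an area of 370 and the TAZ4SA peak, of 822 bp, an area of 2735 (ratio 0.135, −log10 p 6.06 against 13.2). At chr21:42513013-42513384 the ratio was 0.149 and at chr20:8404777-8404935 it was 0.159. Inverted pairs of this size were rare, since the TAZ4SA area reached 2 times that of TAZ-CAMTA1 or more in 1.30% of strong pairs. The largest summit distances, 1833 bp at chr2:65657387-65660704, 1830 bp at chr11:533844-538747 and 1799 bp at chr6:12010918-12014267, all occurred in peaks of 2859 to 4904 bp, which can hold several maxima.

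The pairs with the largest area in both lists behaved otherwise. The widest, at chr1:228744063-228784347, measured 40285 bp for TAZ-CAMTA1 and 40187 bp for TAZ4SA, with areas of 314365 and 210494 (ratio 1.49). At chr1:564413-570354 the widths were 5942 bp and 5943 bp, and the TAZ4SA area, 252415, exceeded that of TAZ-CAMTA1, 190621 (ratio 0.755). At chr2:92305210-92311156 the ratio was 0.721. Their borders lay within 80 bp of each other in the first and within 8 bp in the other two, and 2 of these 3 had the larger area in the TAZ4SA list, the direction opposite to most pairs. What lies at these positions was not analysed here, as were gene names, promoters and sequence motifs at all sites, because the genome used here is of another build.

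One-sided peaks were frequent in the TAZ-CAMTA1 list and infrequent in the TAZ4SA list. Of 74802 strong TAZ-CAMTA1 peaks, 12999 (17.4%, 17.1 to 17.7) had no TAZ4SA peak within 1 kb. Of 44497 strong TAZ4SA peaks, 1224 (2.75%, 2.60 to 2.91) had no TAZ-CAMTA1 peak within 1 kb. A small further group, 4105 TAZ-CAMTA1 peaks (5.49%) and 383 TAZ4SA peaks (0.861%), did not overlap but had a neighbour within 1 kb. With equal numbers of peaks in both lists, the strongest 152702 of each by −log10 p or by area, the TAZ4SA count was 1936 or 1875. The TAZ-CAMTA1 count of 12999 could not change under this setting. Strong peaks are kept by either ranking, and the TAZ4SA list, already of this length, lost no peak.

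The same count for the other pairs of lists puts these shares in context. The TAZ4SA list was the one most often without a neighbouring peak for 5 of the 6 other lists, with shares of 16.6% for YAP-TFE3, 12.1% for CAMTA1, 4.53% for EV and 4.46% for TFE3 beside the 17.4% of TAZ-CAMTA1. The exception was YAP5SA, whose strong peaks lacked an EV peak (10.5%) more often than a TAZ4SA peak (8.29%). For strong TAZ-CAMTA1 peaks, the shares without a neighbour were much lower in the other lists, at 4.14% for EV, 4.18% for YAP5SA, 1.49% for TFE3, 0.628% for CAMTA1 and 0.477% for YAP-TFE3. For strong TAZ4SA peaks, the share without a TAZ-CAMTA1 peak, 2.75%, lay within the range of the 5 other lists, which was 0.337% for YAP5SA, 0.939% for CAMTA1, 1.70% for YAP-TFE3, 3.49% for TFE3 and 4.20% for EV. In turn, the strong peaks without a TAZ-CAMTA1 peak made up 4.88% of the YAP5SA, 1.01% of the YAP-TFE3, 0.515% of the CAMTA1 and 0.105% of the EV peaks. In the TFE3 list they were 0 of 47513, which allows up to 0.00631%. The 2.75% of TAZ4SA was thus second to YAP5SA among the shares without a TAZ-CAMTA1 peak. The 17.4% of TAZ-CAMTA1 peaks without a TAZ4SA peak was the highest share of the 42 ordered pairs.

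**Figure D2:**
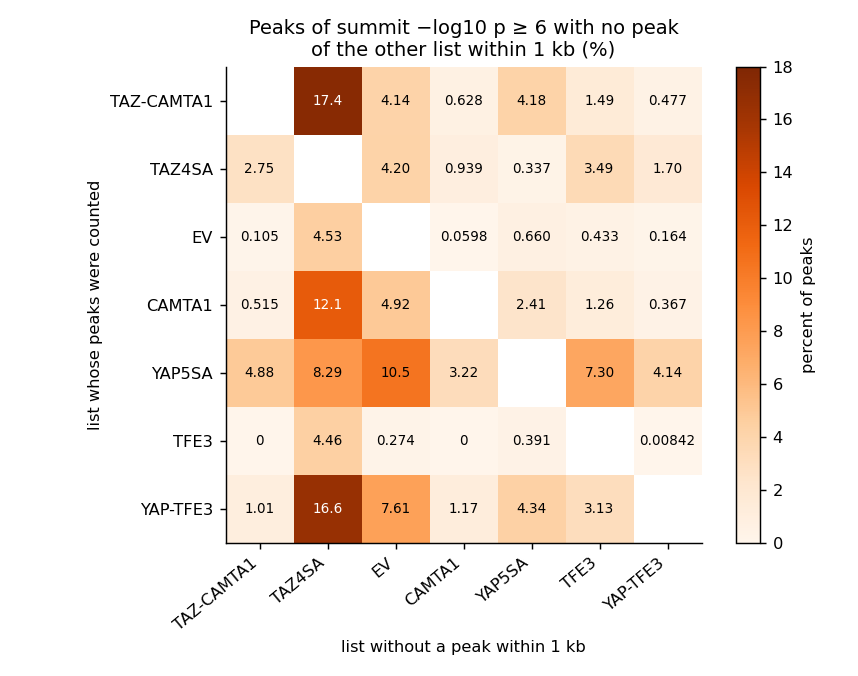
Share of strong peaks (summit −log10 p of 6 or more) of the list in each row that had no peak of the list in each column within 1 kb, in percent, given by colour and number. The TAZ4SA column holds the 3 highest values, 17.4, 16.6 and 12.1, and the row of TAZ4SA runs from 0.337 to 4.20.

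One-sided peaks were concentrated among the weaker of the strong peaks. In the TAZ-CAMTA1 list, 37.8% of peaks with a summit −log10 p of 6 to 7 were one-sided, 28.8% of those from 7 to 8, 15.2% from 8 to 10 and 2.42% from 10 to 15. None of the 8915 peaks at 15 or above was one-sided, which allows a share of up to 0.0337%. The TAZ4SA shares fell in the same order, from 5.74% through 3.50%, 1.51% and 0.246% to 0 of 1802, which allows up to 0.166%. Every site this strong in one list therefore had a peak of the other list within 1 kb. Width ran in parallel, with 33.4% of TAZ-CAMTA1 peaks of 200 to 500 bp one-sided but 0.384% of those of 2000 bp or more. The median one-sided peak was 455 bp wide with a −log10 p of 6.98 in the TAZ-CAMTA1 list and 336 bp wide with 6.74 in the TAZ4SA list, against 851 bp and 625 bp for all strong peaks.

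Peaks lay close to both cut-offs on either side. In lists of this length, that does not show whether their number changes there. In equally narrow ranges of −log10 p, 847 TAZ-CAMTA1 peaks without a TAZ4SA peak within 1 kb lay just inside the cut-off and 1003 just outside. For TAZ4SA peaks without a TAZ-CAMTA1 peak the numbers were 126 and 81. Of these TAZ-CAMTA1 peaks without a neighbour, the nearest to the cut-off had a −log10 p of 6.000171 inside and 5.999973 outside it. Those of TAZ4SA had 6.002745 and 5.999796. By distance, the nearest values inside and outside were 1001 and 1000 bp for TAZ-CAMTA1 and 1004 and 993 bp for TAZ4SA. Most one-sided peaks lay far past the limit, at a median distance to the nearest peak of the other list of 6585 bp (quartiles 2960 and 14503) for TAZ-CAMTA1 and 8421 bp (quartiles 3186 and 24672) for TAZ4SA. With a distance of 5 kb the counts were 7635 and 782, and with a −log10 p of 8 or more they were 2953 and 184.

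The 2 groups of one-sided peaks differed in where else they were accessible. Most one-sided TAZ-CAMTA1 peaks were also peaks in EV and CAMTA1 cells, that is, they were sites at which the TAZ4SA list lacked a peak that the control had. Most one-sided TAZ4SA peaks had no EV peak. Of the 12999 TAZ-CAMTA1 peaks, 10341 (79.6%, 78.9 to 80.2) were in both the EV and the CAMTA1 list, against 93.3% of all strong TAZ-CAMTA1 peaks, a number that includes the one-sided ones. A further 2122 (16.3%, 15.7 to 17.0) were in CAMTA1 only, against 5.67% of all. The 268 peaks in EV only made up 2.06% (1.83 to 2.32), against 0.515% of all, and the 268 in neither list also 2.06%, against 0.472%. Of the 1224 TAZ4SA peaks, only 232 (19.0%, 16.9 to 21.2) were in both lists, against 93.9% of all strong TAZ4SA peaks. CAMTA1 only held 544 (44.4%, 41.7 to 47.2; all 4.55%), EV only 91 (7.43%, 6.09 to 9.04; all 0.436%) and neither list 357 (29.2%, 26.7 to 31.8; all 1.13%).

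Absolute numbers are given for a −log10 p of 6 or more. The class absent from both controls was the only one of the 4 with more one-sided peaks in TAZ4SA than in TAZ-CAMTA1, 357 against 268. In the others TAZ-CAMTA1 had more, with 10341 against 232 in both controls, 2122 against 544 in CAMTA1 only and 268 against 91 in EV only. Sites absent from both controls were narrow, with median widths of 320 bp and 280 bp, and their median −log10 p values, 6.24 and 6.55, lay close to the cut-off. One-sided peaks present in both controls were stronger, with medians of 7.19 for TAZ-CAMTA1 and 7.02 for TAZ4SA. The counts for sites in neither list depended on the cut-off more than the rest: with a −log10 p of 8 or more, 0.0677% of the one-sided TAZ-CAMTA1 and 12.5% of the one-sided TAZ4SA peaks were left in this class. At 5 or more TAZ-CAMTA1 had the larger count, with 8.59% of 26581 one-sided peaks against 44.6% of 3563 for TAZ4SA. With the TAZ-CAMTA1, TAZ4SA, EV and CAMTA1 lists all cut to equal numbers by −log10 p, the counts were nearly level. They were 4.92% of 12999 against 32.3% of 1936. The 12999 peaks were the same as before, so only the shortened EV and CAMTA1 lists changed their classes.

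**Figure D3:**
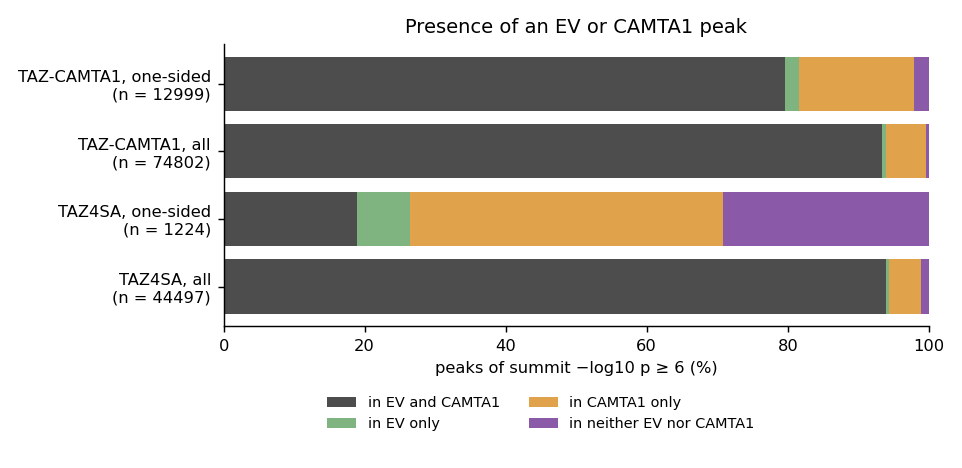
Stacked bars of the share of strong peaks (summit −log10 p of 6 or more) in percent, by presence of an overlapping peak in the EV and CAMTA1 lists, for one-sided peaks and for all strong peaks of the TAZ-CAMTA1 and TAZ4SA lists. The class present in both controls takes 79.6% of one-sided TAZ-CAMTA1 peaks and 19.0% of one-sided TAZ4SA peaks, while it takes 93.3% and 93.9% of all strong peaks.

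One-sided peaks are weaker than the rest, and weaker peaks are found in fewer lists, so the split was repeated within ranges of summit −log10 p. From 6 to 7, 67.7% of 6592 one-sided TAZ-CAMTA1 peaks were in both EV and CAMTA1, against 83.4% of the 10852 peaks of that range that were not one-sided. In the TAZ4SA list the shares were 15.1% of 753 and 90.4% of 12361. From 8 to 10, they were 96.5% and 99.3% for TAZ-CAMTA1 and 22.3% and 98.3% for TAZ4SA. At matched strength the gap between one-sided and other peaks was thus 15.6 percentage points or less for TAZ-CAMTA1 and 71.9 or more for TAZ4SA in the ranges up to 10. Between 10 and 15 only 27 TAZ4SA peaks were one-sided, of which 55.6% were in both controls.

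Presence in the remaining lists showed the same contrast. One-sided TAZ-CAMTA1 peaks were found in the YAP-TFE3 list in 97.2% of cases, in CAMTA1 in 95.9%, in TFE3 in 91.9%, in EV in 81.6% and in YAP5SA in 77.2%, where the shares of all strong TAZ-CAMTA1 peaks were 99.3%, 99.0%, 97.6%, 93.9% and 93.8%. All 5 other lists held 8075 of them (62.1%), and 44 (0.338%) were in none. One-sided TAZ4SA peaks were found in YAP5SA in 91.2% of cases (89.5 to 92.6), but in CAMTA1 in 63.4%, in YAP-TFE3 in 46.2%, in EV in 26.4% and in TFE3 in 20.7%. All 5 other lists held 76 of them (6.21%), and 36 (2.94%) were in none. For all strong TAZ4SA peaks the 5 shares were 99.4%, 98.4%, 97.5%, 94.3% and 95.3% in the same order. The list with the activated form of YAP, the paralog of TAZ, was the one that shared most one-sided TAZ4SA peaks and fewest one-sided TAZ-CAMTA1 peaks. It held the same places for all strong peaks, at 99.4% and 93.8%, so this order was not particular to one-sided peaks. Among all strong peaks the shares lay closer together.

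The overlap with YAP5SA held in each class of the TAZ4SA peaks. It was 94.0% of the 232 peaks in EV and CAMTA1, 95.4% of the 544 in CAMTA1 only, 79.1% of the 91 in EV only and 86.0% (82.0 to 89.2) of the 357 in neither. In that last class, TFE3 shared 2.80% and YAP-TFE3 21.6%. Of the 268 TAZ-CAMTA1 peaks in neither control, 70.9% (65.2 to 76.0) were in the YAP-TFE3 list, 45.9% in TFE3 and 36.6% in YAP5SA. One-sided sites absent from both controls were therefore shared most often with activated YAP on the TAZ4SA side, and with the other fusion on the TAZ-CAMTA1 side. The same lists were shared most by all strong peaks, at 99.4% for TAZ4SA and 99.3% for TAZ-CAMTA1. The shares for all strong peaks absent from both controls were not computed.

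**Figure D4:**
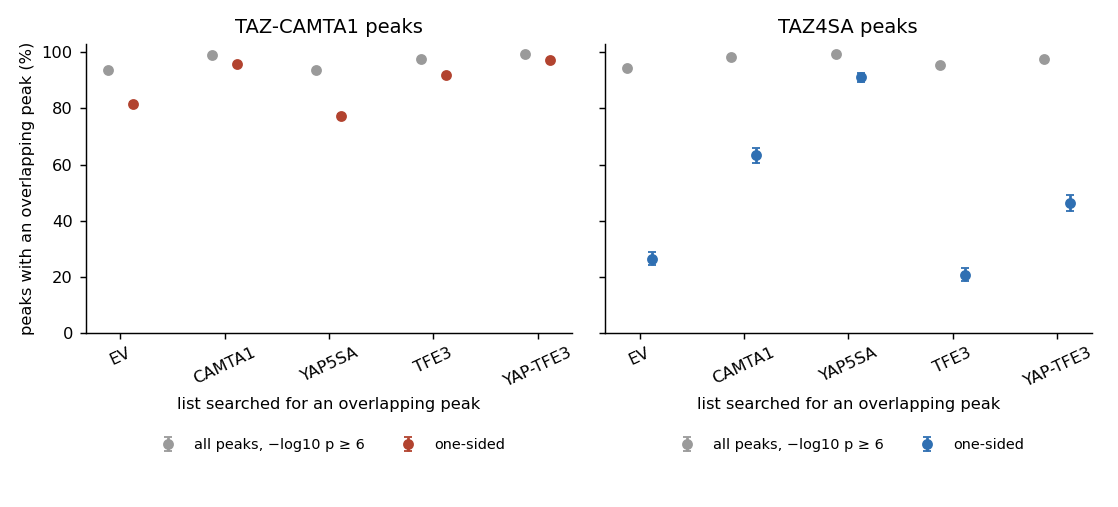
Share of strong TAZ-CAMTA1 peaks (left) and TAZ4SA peaks (right) that overlapped a peak of the list named on the x axis, in percent. Grey points show all strong peaks, coloured points one-sided peaks, and error bars 95% Wilson intervals. The one-sided TAZ-CAMTA1 points lie between 77.2 and 97.2, and the one-sided TAZ4SA points between 20.7 in TFE3 and 91.2 in YAP5SA.

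Where a one-sided peak was present in another list, its strength there was also recorded. One-sided TAZ-CAMTA1 peaks had a median −log10 p of 7.17 at the 10609 sites with an EV peak, and the EV peak had 4.95. The EV value was the higher one at 0.650% of these sites. Over all strong TAZ-CAMTA1 peaks with an EV peak the medians were 9.15 and 6.66, and EV was higher at 2.71%, so that a lower EV value was not confined to one-sided sites. The TAZ-CAMTA1 side was also chosen by its −log10 p of 6 or more, and the EV side was not. The matching value was 6.04 in CAMTA1 and 6.59 in YAP-TFE3. YAP-TFE3 was higher than TAZ-CAMTA1 at 31.1% of one-sided sites against 59.6% of all strong ones, and CAMTA1 at 15.5% against 36.4%. One-sided TAZ4SA peaks had a median of 6.78 at the 1116 sites with a YAP5SA peak, which had 7.36 and was the higher of the pair at 55.8% of sites. Over all strong TAZ4SA peaks YAP5SA was the higher at 85.9%, with medians of 10.8 and 8.16, so that one-sided sites lay below the general YAP5SA level. In the other 4 lists the medians at one-sided TAZ4SA sites were 4.07 to 4.72, and the list was the higher one at 6.37% of sites or fewer, against 44.6% to 88.0% of all strong ones. YAP5SA was therefore the only one of the 5 other lists in which these sites reached the strength seen with TAZ4SA. The −log10 p depends on depth, which was unknown, and for this reason the position within the own list is given too: by −log10 p, the TAZ4SA peaks stood at a median percentile of 78.0 and the YAP5SA peaks at 80.0.

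The sites with the largest area in each class are given as examples. Among one-sided TAZ-CAMTA1 peaks in EV and CAMTA1, the largest was at chr19:813172-818323, a peak of 5152 bp with an area of 13500 and a summit −log10 p of 9.27. There the summit value was 5.50 in EV, 8.18 in CAMTA1, 7.25 in YAP5SA, 6.15 in TFE3 and 8.93 in YAP-TFE3, and the nearest TAZ4SA peak was 2355 bp away. It was followed by chr8:22408587-22412222 (area 8059) and chr15:40384085-40385961 (area 7213, −log10 p 14.0, against 9.43 in EV). All 3 were peaks in each of the 5 other lists.

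In CAMTA1 only, the largest TAZ-CAMTA1 peak was at chr5:168476841-168478102, with an area of 2286 and a −log10 p of 6.96 against 6.69 in CAMTA1. At chr1:48469508-48470282 the values were 9.58 in TAZ-CAMTA1, 7.08 in CAMTA1 and 9.59 in YAP-TFE3, and at chr1:33726731-33727592 they were 8.50, 6.25 and 7.72. At these last 2 sites the CAMTA1 value was the lowest of the 3, whereas at the first site YAP-TFE3, at 6.64, was the lowest. In EV only, the largest was at chr7:67586577-67587490, with 10.2 in TAZ-CAMTA1, 5.23 in EV and 6.59 in YAP-TFE3. The others of that class were at chr17:60994113-60994914 (8.57, EV 5.23) and chr10:102118864-102119968 (8.84, EV 5.58).

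In neither control, the largest TAZ-CAMTA1 peak was at chr5:66928600-66929052, 453 bp wide, with a −log10 p of 7.94, and it was present in YAP-TFE3 (6.48), TFE3 (5.77) and YAP5SA (3.89). The peak at chr3:72131943-72132553 (6.63) was likewise present in these 3 lists. The peak at chr11:113064457-113065288, 832 bp wide with an area of 1080 and a −log10 p of 7.58, overlapped no peak of any other list. Its nearest TAZ4SA peak was 7960 bp away.

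Among one-sided TAZ4SA peaks, the largest area of any class was 5036, at chr11:131211508-131212603, a peak in CAMTA1 but not in EV. Its −log10 p was 13.7 in TAZ4SA, 12.7 in YAP5SA, 6.93 in CAMTA1, 4.47 in TFE3 and 4.09 in YAP-TFE3, and the nearest TAZ-CAMTA1 peak was 28172 bp away. At chr7:48466275-48467261 the values were 14.0 in TAZ4SA, 17.5 in YAP5SA and 10.1 in CAMTA1, and at chr8:118822997-118824180 they were 11.1, 14.9 and 3.88. In all 3 the TAZ4SA and YAP5SA values were the highest, TAZ4SA leading at the first site and YAP5SA at the other two.

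In neither control, the largest TAZ4SA peak was at chr18:76610772-76612225, with 9.56 in TAZ4SA and 10.7 in YAP5SA and no peak in the other lists. At chr8:77318038-77318804 the values were 9.74 and 9.06, again with no peak elsewhere. The peak at chr20:18142447-18143624 (6.83) was in no other list. In EV and CAMTA1, the largest were a neighbouring pair at chr1:2609382-2612241 (7.71, EV 7.22, CAMTA1 4.58) and chr1:2604906-2607659 (9.14, EV 6.40, CAMTA1 4.34), followed by chr1:240194319-240195449 (11.1, EV 4.36, CAMTA1 7.73, YAP5SA 11.3). In EV only, they were at chr2:91613423-91613991 (8.67, EV 5.32), chr7:132854000-132854869 (8.46, EV 3.95, YAP5SA 8.80) and chr2:91614231-91614961 (7.36, EV 5.21).

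One-sided peaks were unevenly spread over chromosomes 1 to 22 and X. Chromosome Y was left out of these shares. The share of strong TAZ-CAMTA1 peaks without a TAZ4SA peak ran from 11.3% (10.4 to 12.4) on chromosome 9 and 12.8% on chromosome 5 to 24.97% on chromosome 21 and 26.2% (24.1 to 28.4) on chromosome 22. The share of strong TAZ4SA peaks without a TAZ-CAMTA1 peak was lowest on chromosome 22, at 0.576% (0.224 to 1.47), and on chromosome 17, at 0.617%. Of these chromosomes it was highest on 18, at 8.15% (6.35 to 10.4), where 58 of 712 peaks were one-sided. These intervals treat peaks as independent, which clustered peaks are not.

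**Figure D5:**
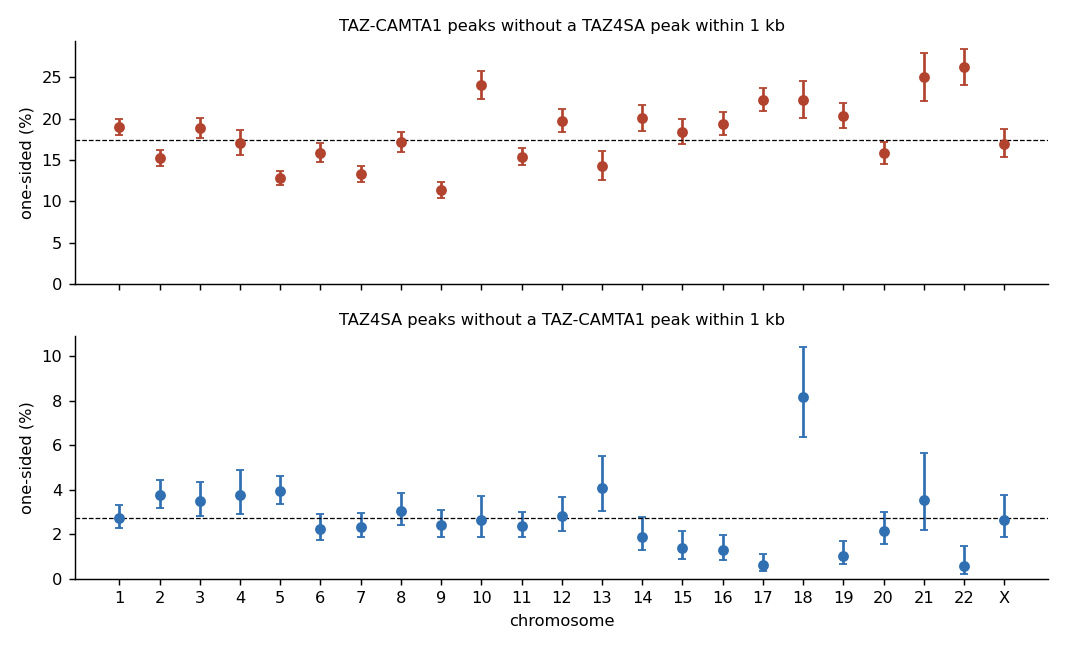
Share of strong peaks that were one-sided on chromosomes 1 to 22 and X, in percent, for TAZ-CAMTA1 (top) and TAZ4SA (bottom). Points give the share, error bars the 95% Wilson interval and dashed lines the share over all chromosomes shown. Of the chromosomes shown, 22 is highest for TAZ-CAMTA1 and 18 for TAZ4SA.

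The value on chromosome 18 came largely from a single region. The 1-Mb bin from 76 to 77 Mb held 31 of the 58 one-sided TAZ4SA peaks. In this bin there were 208 TAZ4SA peaks and 146 YAP5SA peaks, but 62 in YAP-TFE3, 56 in CAMTA1, 38 in EV, 18 in TAZ-CAMTA1 and 16 in TFE3. The neighbouring bins did not share this order, since from 75 to 76 Mb the TAZ4SA list held 23 peaks and the TAZ-CAMTA1 list 43. The next bin by number, on chromosome 5 from 165 to 166 Mb, held 24 one-sided TAZ4SA peaks, and its peak numbers were 666 in TAZ4SA, 643 in YAP5SA, 550 in EV, 403 in CAMTA1, 245 in YAP-TFE3, 204 in TAZ-CAMTA1 and 119 in TFE3. From 164 to 165 Mb of that chromosome, TAZ4SA had 133 peaks, YAP5SA 59 and EV 29, while TAZ-CAMTA1 and TFE3 had 0.

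In all, 6 bins held 10 or more one-sided TAZ4SA peaks, together 104 of the 1224 (8.50%), and 508 of the 750 bins with any held a single one. Without these 6 bins, 1120 one-sided TAZ4SA peaks were left, of which 91.3% overlapped a YAP5SA peak, so that the overlap with YAP5SA did not rest on them. One-sided TAZ-CAMTA1 peaks were found in 2049 bins with a median of 5 each. There were 487 bins with 10 or more, holding 51.6% of them. The largest number was 31, on chromosome 20 from 51 to 52 Mb, where TAZ-CAMTA1 had 307 peaks, CAMTA1 241, YAP-TFE3 216, EV 183, TFE3 180, YAP5SA 126 and TAZ4SA 64. The next, on chromosome 7 from 67 to 68 Mb, held 29, with 189 TAZ-CAMTA1 and 47 TAZ4SA peaks. In both of these bins TAZ4SA had the fewest peaks of all 7 lists.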

How the data were processed

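Accessible chromatin of SW872 cells carrying 1 of 7 vectors was measured by ATAC-seq (20 libraries). The study's methods give NGmerge for trimming, BWA-MEM for alignment to hg19 and Genrich in ATAC mode for peak calling, after removal of PCR duplicates, blacklisted regions and the mitochondrial genome, with no control named. The submitters' processing notes name Bowtie 0.12.2 and a mouse build instead. The coordinates themselves are those of hg19, as the list reaches base 249240671 of chromosome 1. The methods describe calling on each replicate, but 1 list per vector was deposited and how libraries were combined is not given in the sources used here.

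The authors deposited for each peak a signal value (the caller's area under the curve for the peak), the −log10 p and −log10 q of the summit, a score (capped mean area per base) and the summit offset. The −log10 q and the score were not used. Signal values are not scaled for depth, so deeper lists can hold wider peaks of larger area and more weak peaks. Positions count from 1.

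Overlaps, distances, ratios and shares were computed with Python 3.11.15, numpy 2.4.6, pandas 2.3.3 and scipy 1.17.1, tested on simulated data with planted peaks, and checked against bedtools 2.31.1 (overlap counts differed by 0). Ratios and summit shifts used one-to-one pairs, in which each peak overlaps exactly 1 peak of the other list. Where several peaks of another list overlapped a site, the highest −log10 p was taken. Named sites were the 3 of largest area in each of the 4 presence classes per list, the 3 strong pairs with the largest and the 3 with the smallest area ratio, the 3 with the largest summit shift, and the 3 pairs with the largest smaller area, leaving out chromosome Y. The division by summit −log10 p and the 1-Mb bins were chosen after the values were seen. Lists, rules and members were chosen with earlier results of these data known. No gene, promoter or sequence is given, since the genome used here is of another build.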

Additional observations from a re-analysis of the deposited data

How the results depend on the processing

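Of 121 alternative values computed for 15 results, 51 stayed within the counting error or, for counts, within 1.5 times the reported value, and 70 moved. A change of direction was defined only for the width and area ratios, where 0 occurred. Which list had more one-sided peaks in neither control was not among these results, and it depended on the setting. Equalising the length of the TAZ-CAMTA1, TAZ4SA, EV and CAMTA1 lists moved most results. The one-sided TAZ-CAMTA1 peaks stayed the same, so their classes moved through the shortened EV and CAMTA1 lists alone. With equal numbers of peaks ranked by −log10 p, the area ratio was 3.70, the width ratio 1.75, the shares of overlapping TAZ-CAMTA1 and TAZ4SA peaks 50.3% and 70.9%, and the one-sided TAZ4SA count 1936. The one-sided TAZ-CAMTA1 peaks then divided into 72.1% in EV and CAMTA1, 17.6% in CAMTA1 only, 5.38% in EV only and 4.92% in neither, and the TAZ4SA classes other than EV and CAMTA1 were 37.04%, 11.2% and 32.3% in the same order. Ranked by area, the values were 3.69, 1.76, 50.6%, 71.3% and 1875, then 73.0%, 17.3%, 5.15% and 4.58%, and 38.7%, 10.03% and 31.8%. With both lists limited to a summit −log10 p of 6 or more before pairing, the area ratio was 2.78 and the width ratio 1.64. The shift was then 22 bp and the overlap shares 46.2% and 88.7%. With every overlapping pair the area ratio, width ratio and shift were 5.83, 2.73 and 67 bp. With an overlap of 50% of both peaks they were 2.17, 1.31 and 24 bp, with shares of 16.5% and 25.6%.

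With a −log10 p of 5 or more, 26581 TAZ-CAMTA1 and 3563 TAZ4SA peaks were one-sided. The TAZ-CAMTA1 classes were 59.5% in EV and CAMTA1, 27.6% in CAMTA1 only, 4.30% in EV only and 8.59% in neither, and the moved TAZ4SA classes were 12.3% in EV and CAMTA1, 34.5% in CAMTA1 only and 44.6% in neither. With 8 or more, the counts were 2953 and 184, the TAZ-CAMTA1 classes 97.0%, 2.68%, 0.271% and 0.0677%, and the TAZ4SA classes 27.2%, 57.1%, 3.26% and 12.5%, in the same order. At a distance of 5 kb the counts were 7635 and 782, with 78.8% of TAZ-CAMTA1 peaks in EV and CAMTA1 and, for TAZ4SA, 14.96% there and 32.5% in neither. Counting presence as a peak within 1 kb gave 83.1%, 13.7%, 1.65% and 1.49% for TAZ-CAMTA1, and 25.7% in EV and CAMTA1, 6.05% in EV only and 23.2% in neither for TAZ4SA. Leaving out the 6 bins with 10 or more one-sided TAZ4SA peaks, a choice made after seeing the data, moved the TAZ4SA share in EV only to 6.07% and its overlap share to 77.0%. A distance of 500 bp and autosomes only moved no result. Across these settings TAZ-CAMTA1 had more one-sided peaks, a higher share of them in EV and CAMTA1, and wider peaks of larger area. The causes of the shifts were not tested beyond what each setting itself changes.

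No paired analysis was possible because each vector has 1 list, without values of single libraries. Leaving out single replicates could not be run for the same reason. The unknown depth, the single list per vector and the absence of a control limit every value, and a missing peak means only that none was called.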
